A study of Mus musculus with 8 samples.

Results

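The autosomal distal H3K27ac regions gained in spermatids were 7016 intervals of chromosomes 1 to 19 that lay in introns or between genes, carried H3K27ac in both samples of round spermatids (RS), and had no reproducible H3K27ac region in pachytene spermatocytes (PS). They were selected on the peak calls themselves. The intervals of the 2 RS peak lists that shared at least 1 base were merged, merged regions with an interval from both lists were kept, the same was done for the 2 PS lists, and each region took the genomic class of its interval with the highest fold enrichment. This gave 26489 RS regions and 26333 PS regions, or 34427 places with a region at either stage. Of the 26489 RS regions, 11041 were of class intron or intergenic, here called distal, and 7016 of these had no overlapping PS region and are called gained. Of the gained regions, 3894 (55.5%) were intronic and 3122 (44.5%) intergenic. The other 4025 distal RS regions overlapped a PS region and are called kept, and 4633 distal PS regions without an RS region are called lost.

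H3K27ac was measured by ChIP-seq in PS and RS from testes of adult wild-type C57BL/6 mice, with 2 replicates per stage. RNA was measured in PS and RS of adult C57BL/6 mice carrying the Rnf8- and Scml2-dKO, again with 2 replicates per stage, which gives 8 samples in all. No wild-type RNA and no dKO H3K27ac was analysed here, so a gained region in wild-type cells is set beside the RNA of cells that lack both genes, and effects of the stage and of the genotype on that RNA cannot be told apart. The study compared the stages to follow active chromatin from meiosis into the postmeiotic period, with its main interest in the sex chromosomes, which are left out here. The labels do not say how many mice went into a ChIP-seq sample. Nothing in them says that samples with the same number came from the same mouse, so p-values measure the spread between these samples.

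H3K27ac is acetylation of lysine 27 of histone H3, a mark of active promoters and enhancers. Enhancers lie away from gene starts, in introns or between genes, and can act on genes at a distance, so the gene nearest to a region need not be the gene it acts on. Pachytene spermatocytes are in meiotic prophase with paired chromosomes, and round spermatids are the haploid cells that follow the meiotic divisions. Spermatids express genes for the acrosome, the tail and the later compaction of the nucleus.

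The sequence under the summits of the strongest members shows what the windows looked like, with few CG dinucleotides and, in some, mostly repeats. The windows below are 200 bases of the plus strand of GRCm38 (mm10) centred on the summit of the stronger RS interval, with every CG dinucleotide in capitals and the other bases in lower case. The first 5 are the members with the highest mean fold enrichment over the 2 RS replicates. They lie at chr7:110508039-110508238 in an intron of Sbf2, at chr5:29364939-29365138 in an intron of Lmbr1, at chr3:87289886-87290085 in an intergenic region nearest to Cd5l, at chr6:7567955-7568154 in an intergenic region nearest to Asns and at chr3:129946760-129946959 in an intron of Ccdc109b.
Sbf2 window: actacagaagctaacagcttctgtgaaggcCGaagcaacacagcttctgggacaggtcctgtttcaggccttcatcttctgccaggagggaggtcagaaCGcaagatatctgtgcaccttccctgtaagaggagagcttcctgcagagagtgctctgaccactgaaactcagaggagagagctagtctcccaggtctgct
Lmbr1 window: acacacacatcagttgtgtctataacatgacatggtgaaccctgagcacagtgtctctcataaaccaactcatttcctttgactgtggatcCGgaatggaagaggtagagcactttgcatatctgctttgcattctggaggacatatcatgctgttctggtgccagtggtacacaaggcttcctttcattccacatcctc
Cd5l window: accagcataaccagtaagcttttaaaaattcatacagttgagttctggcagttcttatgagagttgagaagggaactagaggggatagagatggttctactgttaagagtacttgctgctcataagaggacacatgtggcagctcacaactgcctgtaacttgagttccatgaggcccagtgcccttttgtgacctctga
Asns window: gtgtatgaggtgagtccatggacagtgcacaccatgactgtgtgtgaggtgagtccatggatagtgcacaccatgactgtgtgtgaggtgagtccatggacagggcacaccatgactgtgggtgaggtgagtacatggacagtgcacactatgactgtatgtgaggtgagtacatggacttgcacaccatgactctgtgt
Ccdc109b window: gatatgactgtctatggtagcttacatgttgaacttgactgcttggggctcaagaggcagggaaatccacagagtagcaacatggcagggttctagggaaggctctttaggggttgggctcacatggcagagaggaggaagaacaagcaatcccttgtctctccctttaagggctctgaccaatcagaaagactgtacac

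The next 3 windows are from the strongest members that had no interval in either PS list. They lie at chr5:15528967-15529166 in an intergenic region nearest to Speer4d, at chr2:127022046-127022245 in an intron of Ap4e1 and at chr5:47392873-47393072 in an intergenic region nearest to Slit2.
Speer4d window: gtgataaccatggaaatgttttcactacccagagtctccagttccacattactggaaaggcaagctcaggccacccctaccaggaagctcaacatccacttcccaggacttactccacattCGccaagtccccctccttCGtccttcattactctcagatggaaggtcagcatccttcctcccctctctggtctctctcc
Ap4e1 window: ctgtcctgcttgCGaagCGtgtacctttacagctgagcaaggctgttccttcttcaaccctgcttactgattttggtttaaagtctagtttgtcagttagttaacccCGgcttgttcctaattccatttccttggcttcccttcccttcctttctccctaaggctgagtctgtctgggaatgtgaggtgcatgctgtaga
Slit2 window: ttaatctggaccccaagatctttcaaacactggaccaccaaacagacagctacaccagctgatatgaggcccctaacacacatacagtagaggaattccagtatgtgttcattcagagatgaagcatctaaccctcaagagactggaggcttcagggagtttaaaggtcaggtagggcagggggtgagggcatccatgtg

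The Asns window was built of a short unit that recurs along it, and it held 0 CG dinucleotides. The Sbf2 window was soft-masked as repeat over 100% of its length and the Slit2 window over 90.5%, while the Asns window was not masked at all. The 8 windows held between 0 and 3 CG dinucleotides. Speer4d belongs to a family of near-identical copies, but its start lay 90.1 kb from the region. A GENCODE protein-coding start lay within 1 kb of that region. Whether reads there may be shared with other places was not tested.

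Over all members, 300-base windows on the summit were poor in CpG. The selection did not use the sequence, but it left out the promoter class, which held 10436 of the 26489 RS regions. Contrasts with all RS regions, here and for the motifs below, are therefore partly set by the selection. Kept and lost regions were of the same 2 genomic classes as the members. The median GC content was 47.3% in gained regions, 50.3% in kept regions, 48.7% in lost regions and 52.7% in all 26489 RS regions, promoters included. The median number of CG dinucleotides per window was 2 in gained regions, against 4 in both kept and lost regions and 5 in all RS regions. Windows with a GC content above 50% and a ratio of observed to expected CpG above 0.6, the usual marks of a CpG island, made up 0.627% of the gained regions. The same share was 7.25% of kept, 4.23% of lost and 27.2% of all RS regions. Repeat-masked bases took a mean of 25.0% of the window in gained regions, 20.3% in kept and 19.97% in lost regions, and 1313 gained windows (18.7%) were masked over most of their length. Within the gained regions, GC content did not move with strength, since its median was 47.7% both in the weakest and in the strongest 1754 members, whereas the mean masked share was 21.6% in the former and 26.6% in the latter. These are descriptions of sequence, and mappability of the reads was not tested.

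Short motifs were counted on both strands of the same 300-base windows. The GC box (GGGCGG), bound by SP and KLF factors, was present in 4.42% of gained, 10.8% of kept, 8.01% of lost and 23.4% of all RS regions. The motif ACAATG, recognised by SOX factors, was present in 18.4% of gained, 15.7% of kept, 14.0% of lost and 12.9% of all RS regions. The MYB motif AACNGTT was present in 4.60% of gained, 5.37% of kept, 7.73% of lost and 3.94% of all RS regions. The CRE core TGACGT, the E-box CACGTG and the RFX motif GTTGCC were found in 3.08%, 3.53% and 11.2% of gained regions, against 4.38%, 5.40% and 12.1% of all RS regions. Because GC content differed between the classes, the counts were repeated in windows with under 49% GC, which held 4141 gained regions. There the SOX motif stood in 21.5% of gained, 20.6% of kept, 17.3% of lost and 20.5% of all RS regions, and the MYB motif in 5.65%, 7.01%, 9.45% and 6.22%. The GC box stood in 1.79%, 2.17%, 2.72% and 2.25% of these low-GC windows, where it was rare in every class. In windows from 49% to under 57.7% GC it stood in 6.34% of gained, 9.39% of kept, 8.73% of lost and 10.7% of all RS regions. At 57.7% GC and above, with 289 gained regions, the shares were 24.9%, 44.5%, 40.8% and 57.0%. Gained regions thus had the lowest GC box share at each level of GC. Among the low-GC windows the SOX share of gained regions was within 1 percentage point of the share in all RS regions. Those 8723 RS regions include the 4141 gained ones, so this closeness is partly built in. Kept regions, a separate set, had 20.6%, and lost regions had the lowest SOX and the highest MYB share. A match of letters does not show that a factor was bound.

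Gained regions were weak and narrow beside the distal regions that both stages shared. Fold enrichment in these lists is the fragment pileup at the summit plus 1 over the list's background plus 1. The background was the same number for every interval of a list, at 1.46 and 0.723 fragments in RS replicates 1 and 2 and 1.43 and 0.824 in PS replicates 1 and 2. Fold enrichment was therefore a rescaled pileup, with no correction for local background. The median fold enrichment of the members was 5.29 in RS replicate 1 (lowest 2.85, highest 17.9) and 5.22 in RS replicate 2 (lowest 3.48, highest 15.1), which corresponded to median summit pileups of 12 and 8 fragments. The mean of both replicates had a median of 5.26, with the middle 50% of members between 4.44 and 6.50. Kept distal regions had a median of 9.73 on the same scale, and lost regions a median of 5.55 in PS. Of the members, 2856 (40.7%) reached a fold enrichment of 5 in both replicates, 678 (9.66%) reached 7 and 60 (0.855%) reached 10. For kept regions these shares were 80.1%, 59.4% and 36.1%. As the rule used the same calls, these differences carry no test.

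The members were narrow, with a median width of 718 bases and the middle 50% between 430 and 1172 bases. Kept regions had a median width of 1746 bases and lost regions of 613 bases. Widths ran from 146 to 12415 bases, 2249 members (32.1%) were under 500 bases and 397 (5.66%) reached 2000 bases. Together the members covered 6.20 megabases. Intronic members were slightly weaker and narrower than intergenic members, with a median mean fold enrichment of 5.05 against 5.46 and a median width of 664 against 787 bases.

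Strength was less reproducible among members than among the other distal classes. Across regions, which are not independent replicates, the log2 fold enrichments of the 2 RS replicates had a Pearson's r of 0.645 and a Spearman's rho of 0.598 in 7016 gained regions, against an r of 0.911 in 4025 kept regions and of 0.872 between the PS replicates in 4633 lost regions. The range of strength was narrower in the gained class. RS replicate 1 contributed 72928 autosomal intervals and RS replicate 2 contributed 44726, while the PS lists held 38519 and 46177. Just outside the rule stood 26402 distal regions called only in RS replicate 1, with a median fold enrichment of 3.66, and 1727 called only in RS replicate 2, with a median of 4.06. The 701 weakest members of each replicate, just inside the rule, had median fold enrichments of 3.25 in replicate 1 and 3.48 in replicate 2. Both lists limited the number of gained regions, which would be 33934 without RS replicate 2 and 15213 without RS replicate 1. It fell from 7016 to 3229 when every interval had to reach a −log10 q of 5.

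**Figure D1:**
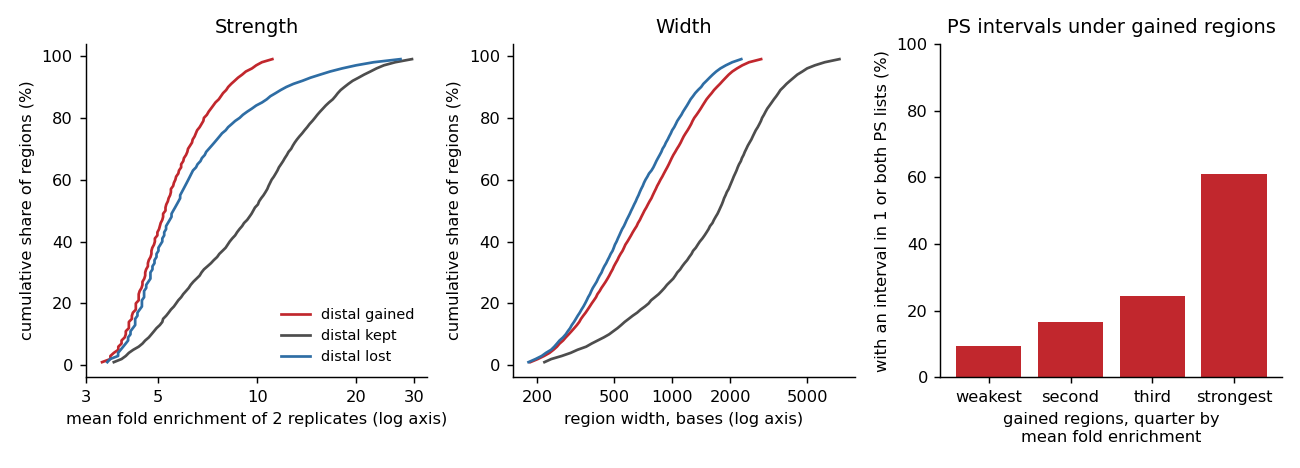
Left and middle, cumulative share of distal regions (%) against the mean fold enrichment of 2 replicates and against width in bases, both on log axes, for gained (red), kept (grey) and lost (blue) regions, drawn from the 1st to the 99th percentile. Right, share of gained regions with an interval in 1 or both PS lists (%), by strength. The gained curve lies left of the kept curve in both plots (medians 5.26 against 9.73, and 718 against 1746 bases), and the share with a PS interval climbs from 9.29% in the weakest to 61.1% in the strongest members.

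The absence of a reproducible PS region did not always mean the absence of a PS interval. No interval of either PS list touched 5063 members (72.2%). An interval of PS replicate 1 alone touched 635 members, an interval of PS replicate 2 alone touched 1046, and 272 had intervals of both that did not overlap each other. The share of members with any PS interval was 9.29% in the weakest 1754 members, 16.7% and 24.3% in the next 2 sets of that size, and 61.1% in the strongest 1754. Among the 198 members with a mean fold enrichment of 10 or more, it was 93.4%. Strong members were also wider, with a median of 1406 bases in the strongest 1754 against 389 in the weakest. Members without any PS interval had a median mean fold enrichment of 4.88 and a median width of 602 bases, against 6.77 and 1183 bases for members with a PS interval.

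The 10 strongest members all had an interval in at least 1 PS list. The strongest, the 2117-base region in the intron of Sbf2 (a myotubularin-related protein) whose summit window is printed first above, had fold enrichments of 17.5 in RS replicate 1 and 13.9 in RS replicate 2, and 5.48 in PS replicate 2, with no interval in PS replicate 1. The region in Lmbr1, a membrane protein gene, stood at 14.2 and 15.1 in the RS replicates and at 4.53 in PS replicate 1. The region nearest to Cd5l, a secreted protein of macrophages, stood at 17.9 and 11.0, with 3.84 in PS replicate 2. At all 3 places both RS values were more than 2 times the PS value, each list being scaled to its own background. The members were ranked on these RS values and chosen for lacking a reproducible PS region. The difference therefore follows in part from the selection and carries no test.

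At the Asns region, nearest to the asparagine synthetase gene, the stages were closer. Its RS fold enrichments were 15.1 and 13.4, and PS replicate 2 alone had an interval of 8.22, the highest PS value under the 10 strongest members. The Ccdc109b region, in a gene for a subunit of the mitochondrial calcium channel, had 13.0 and 14.5 in RS, with 4.53 and 3.84 in the 2 PS lists from intervals that did not overlap each other. The other 5 of the 10 strongest lay nearest to Gm19782, Zfp804b, Tmcc1, Sh2d4b and Dyrk2. Their RS values ran from 8.71 to 17.5 and their PS values from 3.29 to 7.13. No PS value under any of the 10 reached an RS value of its own region, which the choice of the highest RS values favours.

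The strongest members with no PS interval at all were picked out after their values were seen. The region nearest to Speer4d, 340 bases wide, had RS fold enrichments of 14.2 and 9.29. The region in an intron of Ap4e1, a subunit of an adaptor complex of vesicle transport, had 12.2 and 10.4. The region 590 kb from the start of Slit2, a guidance ligand, had 11.4 and 9.87, and the region in an intron of the cytokine gene Il34 had the same 2 values. These places had H3K27ac intervals in both RS samples and in neither PS sample.

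The widest member lay at chr3:3021207-3033621, close to the start of the assembled chromosome 3, and measured 12415 bases with fold enrichments of 12.6 and 11.0. A second member beside it, at chr3:3011932-3017245, measured 5314 bases. The file gives Hnf4g as the nearest gene of both, with its start 481 and 493 kb away, and Hnf4g had 0 reads in all 4 RNA samples. The next widest were 6544 bases in Igsf9, a cell adhesion gene, 5662 bases nearest to the microRNA gene Mir146 and 5141 bases in Atad2, a bromodomain ATPase. All 5 of the widest members had an interval in at least 1 PS list.

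The typical gap between members was shorter than in the other distal classes, which held fewer regions, but the largest groups were in those other classes. When members no more than 12.5 kb apart were joined, 4407 stood alone (62.8%), 888 groups held 2 and 244 groups held 3 or more. Those 244 groups held 833 members, or 11.9%, and 17 groups had 5 or more. In the kept class 77.1% stood alone and in the lost class 72.5%, with 10.3% and 10.5% in groups of 3 or more. Kept and lost regions each had 20 groups of 5 or more. The largest group held 27 kept, 19 lost or 11 gained regions. The median gap from a member to the next was 154 kb, against 250.1 kb in kept and 251.6 kb in lost regions. Density was 2.85 members per megabase over the autosomes, from 2.26 on chromosome 3 to 3.68 on chromosome 5. On every autosome gained regions made up more than 50% of the distal RS regions, from 56.6% on chromosome 19 to 67.0% on chromosome 1.

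Many members bordered other H3K27ac. An RS region that did have a PS region lay within 1 kb of 1523 members (21.7%) and within 12.5 kb of 2999 (42.7%). For the lost regions these shares were 5.22% and 23.6%. Another member lay within 1 kb of 1726 members (24.6%), and a PS region lay within 1 kb of 1097 (15.6%). The comparison of gained and lost regions is one of counts, and the larger width of kept regions in RS was not taken out of it.

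The group with most members held 11 within 32.7 kb, at chr14:60930311-60962961, and all 11 were nearest to Tnfrsf19, a receptor of the tumour necrosis factor family. Their fold enrichments ran from 3.66 to 11.8 in RS replicate 1 and from 5.22 to 8.71 in RS replicate 2. The members stood on both sides of a kept region 8153 bases wide, with RS fold enrichments of 17.1 and 16.8, under which PS had 2 regions of 1352 and 367 bases with fold enrichments between 4.12 and 6.58. Reproducible H3K27ac at this place thus made up 2 regions in PS and 12 in RS, and 3 of the 11 members also had an interval in 1 or both PS lists. Tnfrsf19 itself had 8 and 6 reads in dKO PS and 5 and 4 in dKO RS, too few to test.

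**Figure D2:**
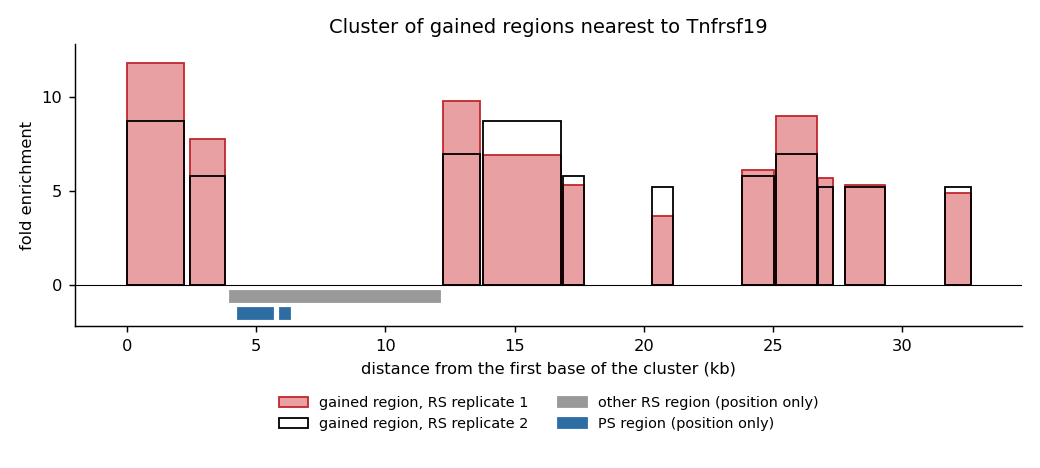
Fold enrichment (vertical axis) of the 11 gained regions nearest to Tnfrsf19 against distance in kb from the first base of the cluster, with filled red boxes for RS replicate 1 and open black boxes for RS replicate 2. Below the axis, the grey bar marks the position of the kept RS region of 8153 bases and the blue bars the 2 PS regions under it, which sit between 4 and 7 kb.

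The next groups by number of members were at Sh3gl3, Gramd1b and Foxj2, followed by Lca5. Sh3gl3, an endophilin of membrane trafficking, had 9 members in 32.7 kb upstream of its start, at chr7:82170975-82203695, with mean fold enrichments from 3.78 to 8.45. Gramd1b, a sterol transfer protein, had 8 members in 17.9 kb of its introns. No PS region lay among them, but 5 of the 8 had an interval in a PS list. Foxj2, a forkhead factor, had 7 in 21.5 kb and the group at Lca5, a ciliary protein gene, held 6 in 35.0 kb, some of them nearest to LOC101410165 in place of Lca5. The Lca5 group tied at 6 with 4 others, nearest to Rxra, Hnf4g, Cntnap5b and Cd5l, and is named for its longer span. Of the genes at the groups of Tnfrsf19, Sh3gl3, Gramd1b, Foxj2 and Lca5, only 1700110K17Rik was called higher in RS, at a log2 fold change of 0.84 ± 0.28, and it lost the call without PS replicate 1 and without RS replicate 2. It overlaps Gramd1b, so these reads may not be cleanly split. Sh3gl3 had 63.9 and 65.6 RPKM in dKO PS and 41.7 and 41.5 in dKO RS, and Foxj2 had 2.19 and 2.42 in PS and 1.34 and 1.17 in RS. Both were lower in RS by edgeR's quasi-likelihood test, with log2 fold changes of -0.60 ± 0.13 (SE, adjusted p = 0.00339) and -0.83 ± 0.22 (adjusted p = 0.0106), and both lost the call when either RS replicate was left out, Sh3gl3 also without PS replicate 2. Lca5 was called lower too, at -0.61 ± 0.17, and lost the call in the same 3 cases.

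By the starts named in the deposited lists, more gained regions than kept or lost regions lay close to a gene, and by GENCODE starts within 1 kb the order of gained and kept regions was the opposite. The distance was taken from the centre of a region to the start of the nearest transcript that the file names. It had a median of 56.6 kb in all members, 24.4 kb in intronic and 127 kb in intergenic members. A distance under 5 kb was found in 908 members (12.9%), against 6.04% of kept and 6.13% of lost regions, and one beyond 200 kb in 1615 (23.0%), against 23.2% and 24.1%. An RS promoter region lay within 2 kb of 904 members (12.9%), of 5.14% of kept and of 2.83% of lost regions. Lost regions are PS regions, and PS promoter regions were not counted for them, so their share is not on the same footing. In GENCODE, 1138 members (16.2%) had some gene start within 1 kb, 469 of them a protein-coding and 526 a lncRNA start, so that part of the members lay at annotated starts although the deposited class was intron or intergenic. For kept regions that share was 31.8%. The 1 kb was counted from the edges of a region and not from its centre. This favours the wider kept regions (median width 1746 against 718 bases), so the 2 orders do not rest on the same measure.

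The RNA shows what the genes nearest to gained regions did between PS and RS of the dKO. The 4 RNA libraries held between 9655405 and 12289694 gene reads. Rnf8, the targeted ubiquitin ligase, had 93 and 110 reads in PS and 61 and 50 in RS, and Scml2, the targeted Polycomb protein gene on the X chromosome, had 40 and 92 in PS and 44 and 98 in RS, so neither was at 0 and the part of each gene that was deleted cannot be read from gene totals. A gene was called higher or lower in RS at an adjusted p below 0.05 by edgeR's quasi-likelihood test and a change of at least 1.5 fold. Of 14163 autosomal genes tested, 29.3% were called higher and 28.5% lower in RS, with a median log2 fold change of -0.04. Some markers of other testis cells moved with the stage in these libraries. Of 10 Sertoli cell markers tested, 2 were higher and 1 lower in RS. For peritubular and endothelial cells 3 were higher and 1 lower of 9 tested, and for spermatogonia 5 and 1 of 11. All 8 Leydig cell markers were lower in RS, at a summed 790 and 570.1 RPKM in PS and 73.1 and 46.0 in RS, and 5 of the 5 tested genes among 8 macrophage and blood markers were higher, at a summed 3.08 and 2.23 RPKM in PS and 42.7 and 36.7 in RS. Their part in the calls below was not tested.

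The members named 4092 nearest genes, of which 4081 were in the RNA tables and 3298 had enough reads to test. Of these 3298, 1286 were called higher in RS (39.0%, where 29.3% of all autosomal genes tested were) and 756 lower (22.9%, where 28.5% were), with a median log2 fold change of 0.31. For genes nearest to kept regions the shares were 35.1% higher and 24.4% lower with a median of 0.23, and for genes nearest to lost regions 32.5% and 25.3% with a median of 0.13. Many genes were nearest to regions of more than 1 class. Genes nearest to a gained region and to no kept or lost region, 1648 of them tested, were higher in 39.1% and lower in 22.7%. Genes nearest only to kept regions were higher in 28.6% and lower in 27.1%, genes nearest only to lost regions in 27.7% and 25.7%, and genes nearest to none of the 3 distal classes in 26.0% and 31.0%. The gained class had the highest share of rising genes in both of these ways of counting, and most of its genes were not called higher.

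The shares moved little when members beside PS signal or promoters were left out. Genes nearest to the 5063 members without any PS interval were higher in 39.9% and lower in 23.2%. Members farther than 2 kb from every RS promoter region gave 39.3% and 22.9%. The share of higher genes was larger for strong members. With a fold enrichment of 7 or more in both RS replicates, 198 of 450 tested genes were higher (44.0%) and 83 lower (18.4%), with a median log2 fold change of 0.54. The number of members per gene showed no steady trend, with 38.2% higher for genes with 1 member, 40.1% with 2, 41.6% with 3 or 4 and 36.9% with 5 or more.

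The classes differed in these shares close to the gene start, and their shares lay close together far from it. Where the nearest member lay within 5 kb of the gene start, 37.0% of 779 tested genes were higher and 23.4% lower. For kept regions at that distance, 21.7% of 217 genes were higher and 38.2% lower, and for lost regions 21.1% of 228 and 31.6%. Beyond 200 kb the shares of higher genes were 44.2%, 45.3% and 45.1% in the gained, kept and lost classes. Genes with only far regions were also expressed at a low level, with a median of 1.31 RPKM in dKO PS for gained regions beyond 200 kb against 17.4 RPKM within 5 kb. These shares are given without a test of the difference between classes.

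**Figure D3:**
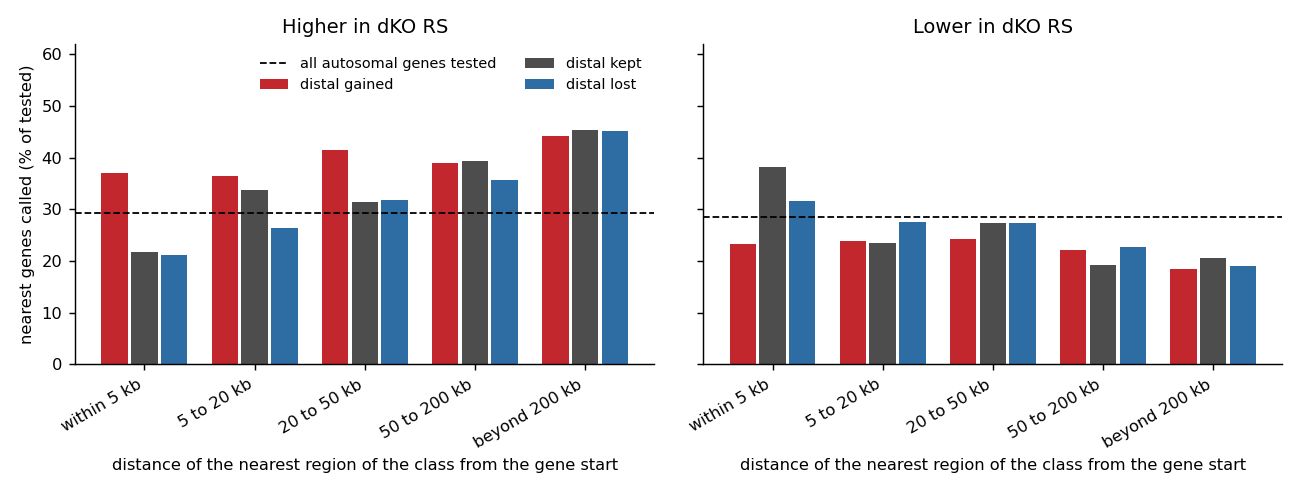
Share of tested nearest genes (%) called higher (left) or lower (right) in dKO RS by distance between the gene start and the nearest region of the class, for gained (red), kept (grey) and lost (blue) distal regions, with the share over all autosomal genes tested as a dashed line (29.3% and 28.5%). Within 5 kb the gained bar for higher genes is at 37.0% and the other 2 near 21%, and beyond 200 kb all 3 are between 44.2% and 45.3%.

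The share of higher genes differed more between states of the gene's own start than between genes with and without a gained distal region nearby. Genes were split by whether a promoter region was found in both stages, in RS only, in PS only or in neither. Here, and for single genes named below, a promoter region is an H3K27ac region of any class within 1 kb of a start of the gene. A gained distal region can itself be such a region, so the states are not independent of the members. With a promoter region in both stages, 32.5% of 2366 genes nearest to a gained distal region were higher in RS, against 20.9% of the 7922 other genes. With a promoter region in RS only the shares were 84.3% of 83 and 74.6% of 276, with one in PS only 37.9% of 240 and 21.2% of 745, and with none 58.3% of 609 and 43.7% of 1922. In each of the 4 states the genes nearest to a gained distal region had the higher share. Levels differed too: median RPKM in dKO PS was 12.3 for the nearest genes and 10.5 for the others where both stages had a promoter region, and 0.511 and 0.583 where neither had.

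**Figure D4:**
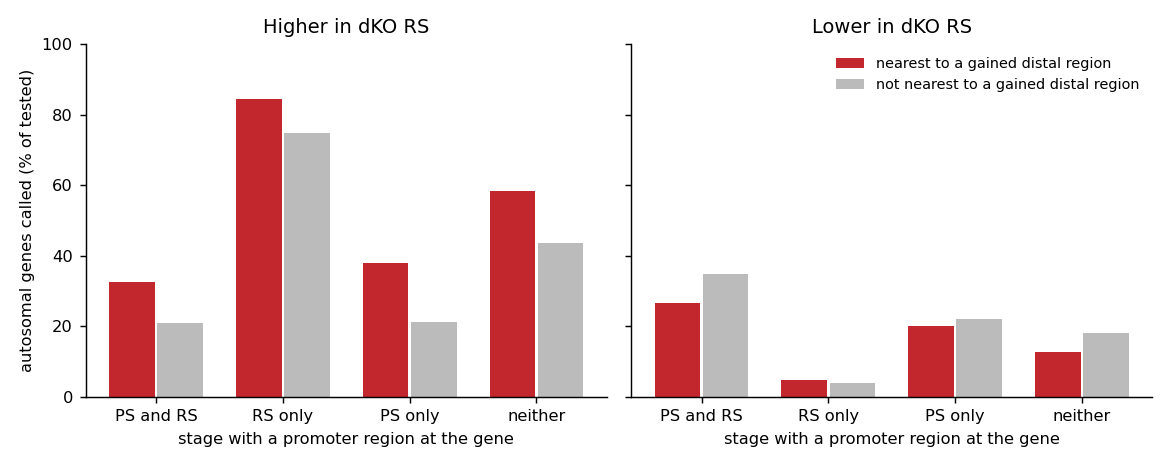
Share of tested autosomal genes (%) called higher (left) or lower (right) in dKO RS, by the stage or stages with an H3K27ac promoter region at the gene, for genes nearest to a gained distal region (red) and all other genes (grey). A promoter region is here an H3K27ac region of any class within 1 kb of a start of the gene. The red bar is the taller in all 4 states on the left, for example 32.5% against 20.9% with a promoter region in both stages.

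Among nearest genes with a mean of at least 100 reads, the 10 largest rises reached log2 fold changes from 4.01 to 4.40, and in each of the 10 both RS samples were above both PS samples. Ppp2r2b, a regulatory subunit of a protein phosphatase, had 1.19 and 1.31 RPKM in dKO PS and 24.7 and 23.2 in dKO RS, a log2 fold change of 4.40 ± 0.21 (SE, edgeR's quasi-likelihood test, adjusted p = 3.29e-06). It had 3 gained regions in its introns and no H3K27ac promoter region at either stage. The strongest of the 3 had RS fold enrichments of 12.6 and 8.71 and also an interval in PS replicate 1. Cyp26b1, which breaks down retinoic acid, had 0.446 and 0.210 RPKM in PS and 6.58 and 5.32 in RS, with its nearer gained region 42.9 kb past its start. Paqr5, a membrane progestin receptor, had 2.01 and 4.14 RPKM in PS and 47.0 and 49.6 in RS, with 3 gained regions and likewise no promoter region.

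Of the other 7 rises, 1700016H13Rik and 4921507P07Rik had a gained region within 2 kb of a start with a promoter region in both stages. The region at chr5:103653556-103654266, 1.81 kb inside 1700016H13Rik, had RS fold enrichments of 5.70 and 5.22 and no PS interval. That gene had 8.02 and 12.3 RPKM in PS and 170 and 158 in RS. The region at chr6:50594979-50595276 in an intron of 4921507P07Rik was 298 bases wide, with fold enrichments of 4.07 and 4.06, and the gene had 11.0 and 15.0 RPKM in PS and 206 and 214 in RS. Spatc1, which encodes a sperm centrosome protein, had 4.46 and 8.08 RPKM in PS and 98.8 and 105 in RS, with a gained region 20.9 kb inside the gene. That region also had an interval in PS replicate 2. Klk1b8 had 2.17 and 2.87 RPKM in PS and 46.8 and 43.4 in RS with a gained intronic region, but it is 1 of many near-identical kallikrein genes. The authors kept only RNA reads that aligned to a single place, so its level is uncertain. The other 3 were 1700012A03Rik, 1700016P04Rik and Adc, an ornithine decarboxylase homologue, with 3.75 to 8.17 RPKM in PS and 65.2 to 141 in RS.

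A gained region also stood beside genes whose RNA fell steeply. The 10 largest falls had log2 fold changes from -3.68 to -5.14, and in each of the 10 both RS samples lay below both PS samples. Tdrd1, a Tudor protein of the piRNA pathway that guards the germ line against transposons, had 122 and 112 RPKM in PS and 8.00 and 9.44 in RS, a log2 fold change of -3.68 ± 0.14 (SE, edgeR's quasi-likelihood test, adjusted p = 3.29e-06). It had 4 gained regions in its introns, the nearest 2.30 kb from its start with RS fold enrichments of 6.51 and 3.48. The nearest also had an interval in PS replicate 2. Mark2, a kinase of cell polarity, also had 4, and had 62.3 and 61.5 RPKM in PS and 4.04 and 5.27 in RS. Gains of H3K27ac inside a gene and a fall of its RNA were thus found together.

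Mgll, the monoacylglycerol lipase gene, had 94.1 and 88.6 RPKM in PS and 4.25 and 6.24 in RS, with 3 gained intronic regions and a promoter region in PS only. Chst1, a sulphotransferase, had 72.7 and 66.0 RPKM in PS and 3.28 and 4.75 in RS, with 1 gained region. 4921525O09Rik fell most, from 35.8 and 34.4 RPKM in PS to 0.808 and 1.14 in RS, with 2 gained regions 129 kb and more upstream. The nearer of these also had an interval in PS replicate 1. For Hepacam2, 1700006A11Rik and 4933404O12Rik the RNA fell as well, with the gained regions 19.3, 3.23 and 2.27 kb from the start. Speer1-ps1, a pseudogene of a family of near-identical copies, is uncertain. 4930525D18Rik had PS values of 25.6 and 69.4 RPKM that were far apart, and 1.60 and 2.72 in RS.

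**Figure D5:**
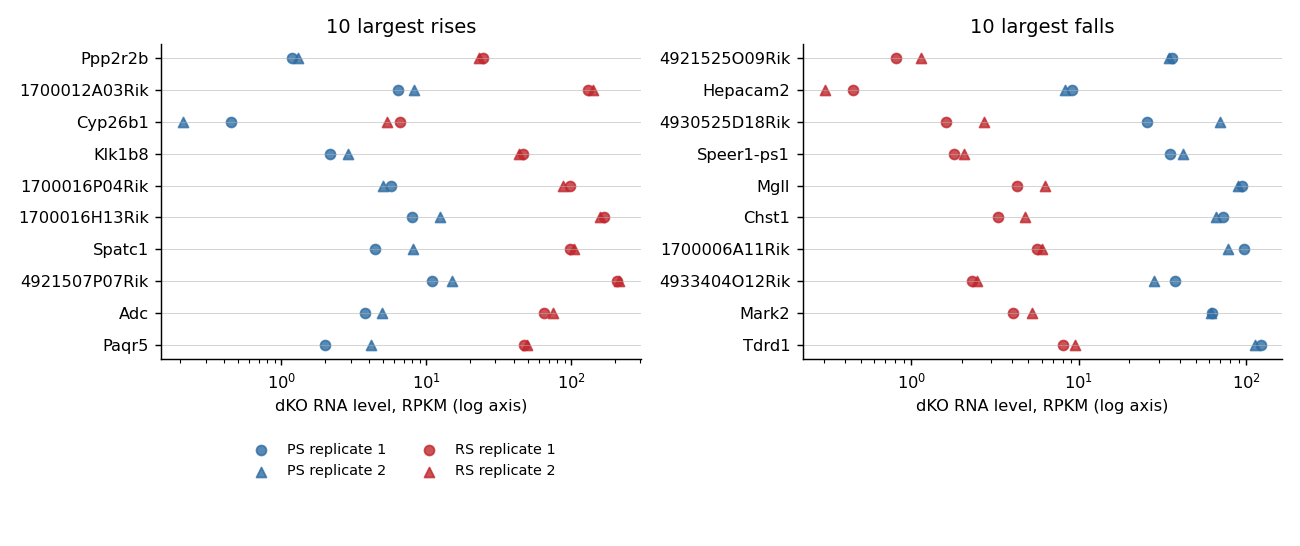
RPKM (log axis) of the 10 nearest genes with the largest rise (left) and the 10 with the largest fall (right) between PS (blue) and RS (red) of the dKO, with circles for replicate 1 and triangles for replicate 2. In all 20 genes the 2 stages do not overlap, for example Ppp2r2b at 1.19 and 1.31 in PS and 24.7 and 23.2 in RS.

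Of the 8 genes nearest to most members, 3 were called higher (29.3% of all autosomal genes tested were), 1 lower (28.5% were), 2 neither, and 2 had too few reads to test. 4933402C06Rik was nearest to 14 members, 13 of them spread from 181 to 1087 kb upstream of it on chromosome 7, and it rose from 1.40 and 1.17 RPKM to 12.2 and 11.0, a log2 fold change of 3.21 ± 0.28 (edgeR's quasi-likelihood test, adjusted p = 2.45e-05). Sh3gl3 was nearest to 13, and 4933438B17Rik, Efnb2 and Grm7 to 12 each. The members lay 248 to 1202 kb from the start of 4933438B17Rik and 80.3 to 3329 kb from that of Efnb2. 4933438B17Rik was called higher at a log2 fold change of 1.25 ± 0.29, as was Efnb2, the gene of an ephrin ligand, at 1.18 ± 0.38, from 0.366 and 0.229 RPKM in PS to 0.612 and 0.708 in RS. The call on Efnb2 was lost in DESeq2 and without 3 of the 4 samples in turn. Grm7, a glutamate receptor, and Tnfrsf19 had too few reads to test. Cntnap2, a neuronal adhesion gene with 11 members, and Prdm2, a zinc finger protein gene with 10, were not called, at -0.33 ± 0.24 and -0.33 ± 0.12.

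The genes nearest to the 10 strongest members went in different directions. Asns had 6.01 and 6.21 RPKM in dKO PS and 67.6 and 43.1 in dKO RS, a log2 fold change of 3.22 ± 0.24 (edgeR's quasi-likelihood test, adjusted p = 1.05e-05), although its start lay 125 kb from the region. Dyrk2, a protein kinase nearest to 6 members, rose from 2.09 and 2.82 to 17.6 and 13.2 RPKM, and Sh2d4b rose to 0.607 and 0.786 RPKM from 0 and 1 read in PS. Cd5l rose from 0.302 and 0.707 to 2.46 and 3.42 RPKM. Cd5l is a gene of macrophages, whose other markers also rose between these libraries, and the part of other cells in its rise was not tested. Sbf2 fell, from 46.1 and 46.3 RPKM to 20.6 and 22.1, while Lmbr1, Tmcc1 and Ccdc109b were not called and Gm19782 and Zfp804b had at most 1 read per sample.

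Lists of genes for the sperm tail, the acrosome and other tasks of spermatids were then searched for nearest genes. Over all 22242 autosomal genes in the tables, 4074 (18.3%) were nearest to a member. Of 28 sperm tail genes 14 were, with 22 members. Of 14 genes for the metabolism of sperm 5 were, of 29 for gene regulation in spermatids 8, of 22 for spermatid signalling 5, of 20 for the acrosome and sperm-egg fusion 4 and of 13 for condensation of the nucleus 1. Of 16 spermatocyte genes, 1 was nearest to members, Sycp1, a component of the synaptonemal complex that joins paired chromosomes. It had 62.2 and 26.1 RPKM in PS and 28.0 and 37.4 in RS, with overlapping groups. The lists were put together with earlier results of these data known, and the lengths of the genes were not taken into account, so the counts are a description.

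Among the 14 tail genes, 5 were called higher in RS, 3 lower and 6 neither, where 16 of the 28 listed genes were higher and 4 lower. Odf2, the main protein of the outer dense fibres, had 773 and 895 RPKM in PS and 1831 and 1827 in RS, with 2 gained regions 7.05 and 8.49 kb from its start, at chr2:29896567-29896965 and chr2:29898186-29898915. Cabyr, a protein of the fibrous sheath, had 29.1 and 37.0 RPKM in PS and 270 and 219 in RS, and Hook1, which links the manchette of the elongating spermatid, had 34.0 and 38.8 in PS and 143 and 135 in RS. The member at Hook1 also had an interval in PS replicate 1. Fscb, another fibrous sheath gene, had 5.04 and 6.13 RPKM in PS and 61.3 and 52.6 in RS, but its 3 members lay more than 1 megabase away. Tekt3, a tektin of the axoneme, was the other gene called higher, at 0.73 ± 0.14, and lost the call without PS replicate 1.

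The dynein heavy chains of the tail went the other way. Dnah8 fell from 767 and 546 RPKM in PS to 214 and 206 in RS, a log2 fold change of -1.60 ± 0.15, and Dnah17 from 112 and 98.8 to 47.1 and 45.6. The call that Spag6, of the central apparatus, was lower, at -0.68 ± 0.12, was lost without RS replicate 1. Ropn1l, Spag16, Tekt1, Dnaic1, Meig1 and Spef2 were not called, with log2 fold changes between -0.43 and 0.58.

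In the other lists too, part of the nearest genes were called. Of the 5 nearest signalling genes 2 were called higher and 1 lower, where 12 and 2 of the 22 listed were, and of the 5 nearest metabolism genes 3 and 1, where 6 and 4 of the 14 listed were. Catsper4, of the sperm calcium channel, had the strongest member among the listed genes that rose, at chr4:134224607-134226038, with RS fold enrichments of 12.2 and 9.87 and an interval in PS replicate 1. Its RNA was 9.20 and 13.3 RPKM in PS and 83.0 and 69.7 in RS, a log2 fold change of 2.81 ± 0.21. Hk1 and Pgk2, of glycolysis, rose from 85.6 and 110 to 471 and 478 RPKM and from 119 and 134 to 484 and 492. Aldoart1 rose as well, with its region 465 kb away, Pdha2 was lower at -0.98 ± 0.14 and Eno4 was not called. The region nearest to Aldoart1 also had an interval in PS replicate 1.

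Of the 8 nearest genes for gene regulation 3 were called higher and 0 lower, where 11 and 6 of the 28 tested were. Klf17 had 0.976 and 1.20 RPKM in PS and 11.8 and 9.54 in RS, Sox5 had 3.03 and 3.86 in PS and 26.9 and 19.7 in RS, and Sox30 had 33.6 and 39.6 in PS and 82.4 and 74.6 in RS. Sox5 had 3 gained regions in its introns, the widest of 2365 bases with RS fold enrichments of 8.95 and 7.55. That widest region also had an interval in PS replicate 2. Rfx2, Tbpl1, Ybx3, Eif4g3 and Ddx4 were near gained regions too and were not called, at log2 fold changes between -0.51 and -0.04. Chd5, the remodeller that acts when histones are replaced, had 5.38 and 10.3 RPKM in PS and 63.9 and 65.3 in RS with a gained region 6.65 kb inside it. An interval of PS replicate 1 also touched that region. Of the 4 nearest acrosome genes 1 was called higher, where 10 of the 20 listed were. Spaca7 rose from 8.99 and 18.3 to 104 and 110 RPKM, while Acr, Dpy19l2 and Spesp1 were not called. Hipk4, a kinase of the spermatid head, rose from 8.91 and 11.5 to 71.3 and 66.4 RPKM, and Catsperb and Ppp3cc were not called. Catsperd was called lower at -0.63 ± 0.19, and the call was lost without PS replicate 2 and without either RS replicate.

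Markers of other cells of the testis were read against the 18.3% of all autosomal genes that were nearest to a member. None of 13 Sertoli cell, 8 Leydig cell or 8 macrophage and blood genes was, while 2 of 11 spermatogonial genes, Gfra1 and Kit, and 4 of 9 genes of peritubular and endothelial cells were. Those 4, Cnn1, Pecam1, Cdh5 and Kdr, were between 0.0442 and 1.63 RPKM in every sample.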

How the data were processed

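PS and RS were analysed by H3K27ac ChIP-seq (wild type) and by RNA-seq (Rnf8- and Scml2-dKO), with 2 labelled samples in each group. Per the submitters' processing notes, Bowtie 1.1.1, MACS2 2.1.0.20140616 and STAR 2.4.2a were used with mm10. The authors called peaks in each sample separately, and the deposited lists give the pileup signal at the summit in fragments, its ratio to background (fold enrichment) and its −log10 q. The deposited RNA tables give an estimated count of reads per transcript and RPKM by the authors. The purified RNA was amplified before the libraries were made. Depth of the ChIP-seq libraries is unknown, and the RNA libraries held 9655405 to 12289694 gene reads.

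Counts were whole and were summed per gene. Genes with at least 10 reads in at least 2 samples, 14647 in all, were tested by edgeR 4.0.16 (quasi-likelihood, TMM, Benjamini-Hochberg), with PS and RS of the dKO in the fit. On simulated counts for this comparison over 14647 genes, 95 of 100 genes changed by 4 fold and 54 of 100 changed by 2 fold were recovered, and 8.02% of 162 calls were false. No other genes were changed in the simulation, a far smaller share than was called in the data. These rates therefore need not hold for the calls reported here. Alternatives were DESeq2 1.42.0, other size factors, no filter, the replicate number as a block, each sample left out and other region rules. Sequence was read from GRCm38, where 99.5% of 18838 genes of the tables overlapped the RefSeq gene of the same symbol. No test was run on what the selection used.

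The members, gene lists and tests were chosen with earlier results of these data known. The text names the 10 strongest and 5 widest members, the 5 largest groups, the 8 genes nearest to most members, the 10 largest rises and falls among called nearest genes with a mean of 100 reads, nearest genes on the lists, and Rnf8 and Scml2.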

Additional observations from a re-analysis of the deposited data

How the results depend on the processing

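The number of gained regions, 7016, was 5063 when no PS interval was allowed, 5331 with the 40000 strongest intervals of each list, 5919 with no PS region within 1000 bases and 6878 with distal intervals alone. It was 3229 when a −log10 q of 5 was required. Without 1 of the 4 ChIP-seq samples it ranged from 5713 to 33934, the highest without RS replicate 2, and it was 15213 without RS replicate 1. Pairing RS and PS lists of the same number, as a replicate block, gave a mean of 22998 (32708 and 13288), since a region then needed 1 list per stage. Genes nearest to members called higher, 1286, ranged from 1009 to 1316 and those called lower, 756, from 547 to 759 without 1 RNA sample. Within 50 kb of the gene start, 841 genes were higher, as fewer genes were tested (2192). The median log2 fold change, 0.31, ranged from 0.27 to 0.33 without 1 RNA sample and was 0.39 with no filter on low counts, where the median of all autosomal genes tested moved to 0.12. A replicate block in edgeR gave 1304 higher and 765 lower. Same-numbered RNA samples deviated together only weakly (correlation 0.225 over genes), and the numbers are not known to pair mice. Leaving out members within 2 kb of an RS promoter region and using the first named gene alone were chosen after seeing the data and gave 1073 and 1268 higher. Of 690 refits of the 87 named genes tested, 25 lost and 15 gained a call and 0 reversed a called direction. Depth limits the regions, since the weakest intervals rest on 5 to 7 fragments.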
